A study of Caenorhabditis elegans with 34 samples.

Results

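The enzymes that remove superoxide and hydrogen peroxide were followed from day 1 to day 12 of the life of Caenorhabditis elegans as 9 genes. These were the superoxide dismutases sod-1 to sod-5, the catalases ctl-1, ctl-2 and ctl-3, and the peroxiredoxin prdx-2. They were chosen by gene symbol, with earlier results of these data known, and are 9 of the 20222 worm genes counted. RNA was sequenced from 34 samples of whole, unsorted animals, with 3 samples on each of 10 days and 2 on days 8 and 12. Ages were counted in days from the first feeding of synchronized larvae, so day 1 is not the first day of adulthood. All animals, at every age, carried the temperature-sensitive spe-9(hc88) allele, which blocks fertilization by sperm, and lived at the restrictive temperature of 25°C, so that no progeny were present. After hypochlorite synchronization, plates with OP50 bacteria were each harvested whole on a given day, so a sample is a pool of animals and a gene's level is an average over all their tissues. The groups compared were day 2 against day 1, days 6 and 7 (6 samples) against days 2 and 3 (6 samples), and days 11 and 12 (5 samples) against days 2 and 3, beside the whole course from day 2 to day 12 (31 samples). These comparisons ask how the transcripts of antioxidant enzymes change on entry into adulthood and then with age.

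Superoxide leaks mainly from the respiratory chain. A superoxide dismutase turns it into hydrogen peroxide, which a catalase splits into water and oxygen without a reducing partner, while a peroxiredoxin reduces it with a cysteine that thioredoxin then restores. The worm has an unusually large set of dismutases. SOD-1 is the main copper/zinc enzyme of the cytosol and SOD-5 a minor one, best known from the dauer larva. SOD-2 and SOD-3 are manganese enzymes of the mitochondrion, SOD-2 the main one and SOD-3 strongly induced by the FOXO factor DAF-16 when insulin signalling is low. SOD-4 is the extracellular copper/zinc enzyme, made in secreted and membrane-bound forms. CTL-2 is the peroxisomal catalase and CTL-1 a cytosolic one, and PRDX-2 is the main cytosolic peroxiredoxin of the typical 2-Cys type.

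On the WBcel235 assembly, with the Ensembl release 115 annotation, all 9 genes are protein-coding. The catalases stand in a row on the minus strand of chromosome II, ctl-2 at 14299556 to 14302027, ctl-1 at 14303568 to 14306260 and ctl-3 at 14307798 to 14310779. They have internal exons of the same length (645 and 273 bases), and their sequences were not compared here. How reads that fit more than 1 of them were assigned is not given in the sources used here, so the split of reads between the catalases is uncertain. The gene sod-1 lies on chromosome II at 6972706 to 6973887, sod-5 on II at 4417633 to 4419130, prdx-2 on II at 5378195 to 5379631, sod-2 on I at 8434550 to 8435807, sod-3 on X at 17092753 to 17094306 and sod-4 on III at 9496884 to 9500375. Of the exon sequence of sod-4, 175 bases (13.4%) lie under exons of ctr-9 on the opposite strand, and the handling of strand in counting is not given, so sod-4 reads and ctr-9 reads in that stretch cannot be told apart. Smaller overlaps of 21 to 85 bases involve sod-1, sod-2, sod-3 and ctl-2.

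Samples held 19202058 to 27587987 counts on genes, with a median of 21606958.5. Values are given as TMM-scaled CPM (CPM below), that is, as counts relative to the total of the library, times a factor that evens out differences in RNA composition. TMM factors lay between 1.02 and 1.17 on days 7 to 12, against 0.756 to 0.882 on days 2 and 3. The libraries that agreed least with others of their own 3-sample day were day 4 replicate 2 and day 5 replicate 3 (highest r with a same-day sample 0.974 and 0.972, against 0.980 to 0.994 in the other 3-sample libraries), and both were also poorest in long transcripts. Marker genes of tissues moved strongly with age. The summed CPM of 9 oocyte genes was 12930 to 16350 on day 2, against 4.13 to 6.23 on day 1, and that of 10 intestinal genes was 1802 to 6978 on days 11 and 12, against 16320 to 37090 on days 2 and 3. The intestinal sum was weighted towards the yolk genes vit-2 and vit-6. Their medians over samples were 3034 and 2896 CPM, against 649.9 CPM for asp-1, the next highest. In whole animals, fewer cells of a type and less RNA per cell cannot be told apart.

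Divided by exon length, the 9 genes spanned more than 3 orders of magnitude on day 2, and prdx-2 was the highest of them on every day. On day 2 its mean was 1297 ± 111 CPM per kb (SD, n = 3), ahead of sod-1 at 552 ± 51.8 and sod-2 at 287 ± 25.0. Then came ctl-1 at 53.1 ± 11.4, ctl-3 at 48.3 ± 9.25 and ctl-2 at 43.5 ± 7.12, with overlapping SDs although ctl-1 was the highest and ctl-2 the lowest of them in each day 2 sample, followed by sod-3 at 9.39 ± 2.74, sod-4 at 7.02 ± 0.226 and sod-5 at 0.395 ± 0.433 CPM per kb. On day 6 the order was ctl-3 (75.3 ± 12.3 CPM per kb), ctl-1 (71.2 ± 11.5), ctl-2 (34.8 ± 2.16), sod-4 (31.1 ± 1.89), sod-3 (3.14 ± 0.343) and sod-5 (2.03 ± 1.31). By day 11 the lower part of the order had changed: ctl-3 (81.2 ± 7.80 CPM per kb) stood above ctl-1 (67.7 ± 7.42) in each sample, with overlapping SDs, sod-4 (44.9 ± 1.43) stood above ctl-2 (17.7 ± 4.29), and sod-5 (3.42 ± 0.613) stood above sod-3 (2.28 ± 0.264).

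**Figure D1:**
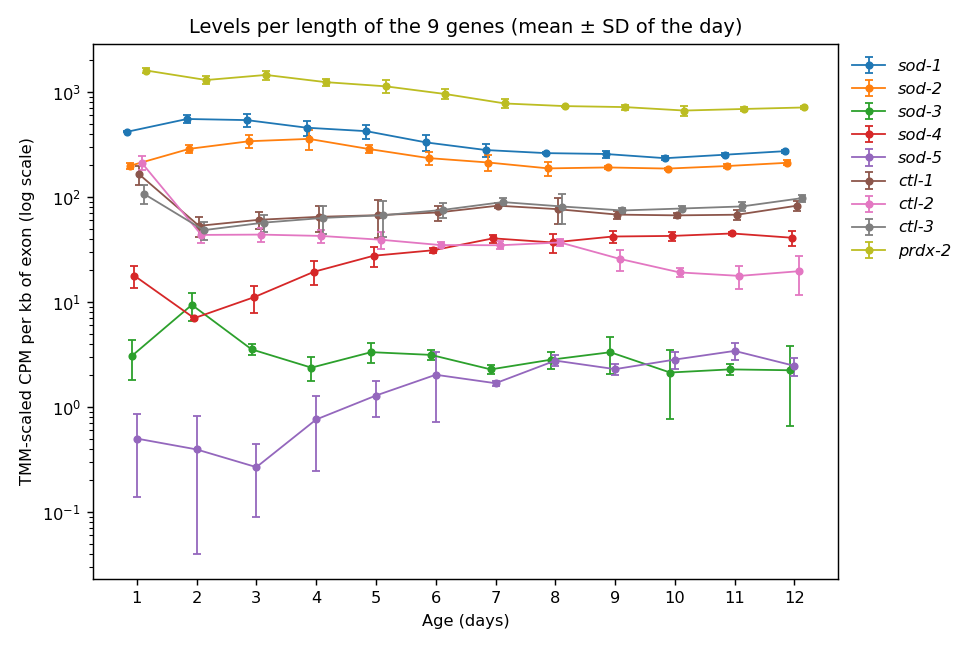
Mean level of each of the 9 genes by day, in TMM-scaled CPM per kb of exon on a log axis; bars are the SD over 3 samples (2 on days 8 and 12), points are shifted sideways for legibility, and the lower bar of sod-5 on day 2, whose SD exceeds its mean, is stopped above 0. The gene prdx-2 is the highest on every day, the catalases drop after day 1, sod-4 climbs past ctl-2 and sod-5 climbs into the range of sod-3.

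With age, the abundant dismutases and the peroxiredoxin fell while the extracellular dismutase gene sod-4 rose. In the fit of a cubic polynomial of age to days 2 to 12, 8 of the 9 genes changed (edgeR quasi-likelihood test, adjusted p under 0.01 for any coefficient), beside 80.3% of the 13865 detected genes. The counts of the 9 genes include sod-5, which entered the tests through the later days on which it was higher and whose call is therefore no support for its rise. All 8 passed for the linear coefficient, beside 70.8% of detected genes. By its sign, 3 genes rose (sod-4, sod-5 and ctl-3), beside 36.9% of detected genes, and 5 fell (sod-1, sod-2, sod-3, ctl-2 and prdx-2), beside 33.9%. The median coefficient over the 9 genes was -0.09 log2 units per day, and that over all detected genes 0.01. Change with age was thus common in the transcriptome at large, and the share of calls among these genes does not set them apart. Without TMM, scaled by library size alone, the median of all detected genes moved to 0.05, and 7047 genes rose and 3035 fell in place of 5115 and 4699; the linear coefficients of the 8 genes kept their signs there, with sod-2 at -0.05, prdx-2 at -0.08 and ctl-3 at 0.12.

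The cytosolic enzyme gene sod-1 was at its highest on day 2 and then ran down to its lowest mean on day 10, with a small rise after. Its daily means were 300.5, 398, 388, 329, 304, 238, 201, 188, 185, 168, 182 and 196 CPM from day 1 to day 12. Between neighbouring days the samples overlapped from day 2 through day 10, so the decline was gradual. The day 11 samples then lay above all of day 10, and the day 12 samples above all of day 11. On days 11 and 12 the 5 samples had 188, 177, 180, 202 and 191 CPM, against 331, 401 and 435 CPM (lowest, median, highest) on days 2 and 3. All the late samples lay below all the early ones, and the fitted log2 fold change was -1.06 ± 0.11 (SE; edgeR adjusted p = 2.24e-09). Most of that drop was already present on days 6 and 7, at 184, 215 and 283 CPM (log2 fold change -0.84 ± 0.10, edgeR adjusted p = 4.38e-08). The linear coefficient was -0.13 ± 0.01 log2 units per day (edgeR adjusted p = 9.76e-14), and sod-1 also passed for curvature (quadratic coefficient 0.78, edgeR adjusted p = 0.000252). For this coefficient 3 of the 9 genes passed, sod-1, sod-4 and sod-5, beside 33.2% of detected genes.

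**Figure D2:**
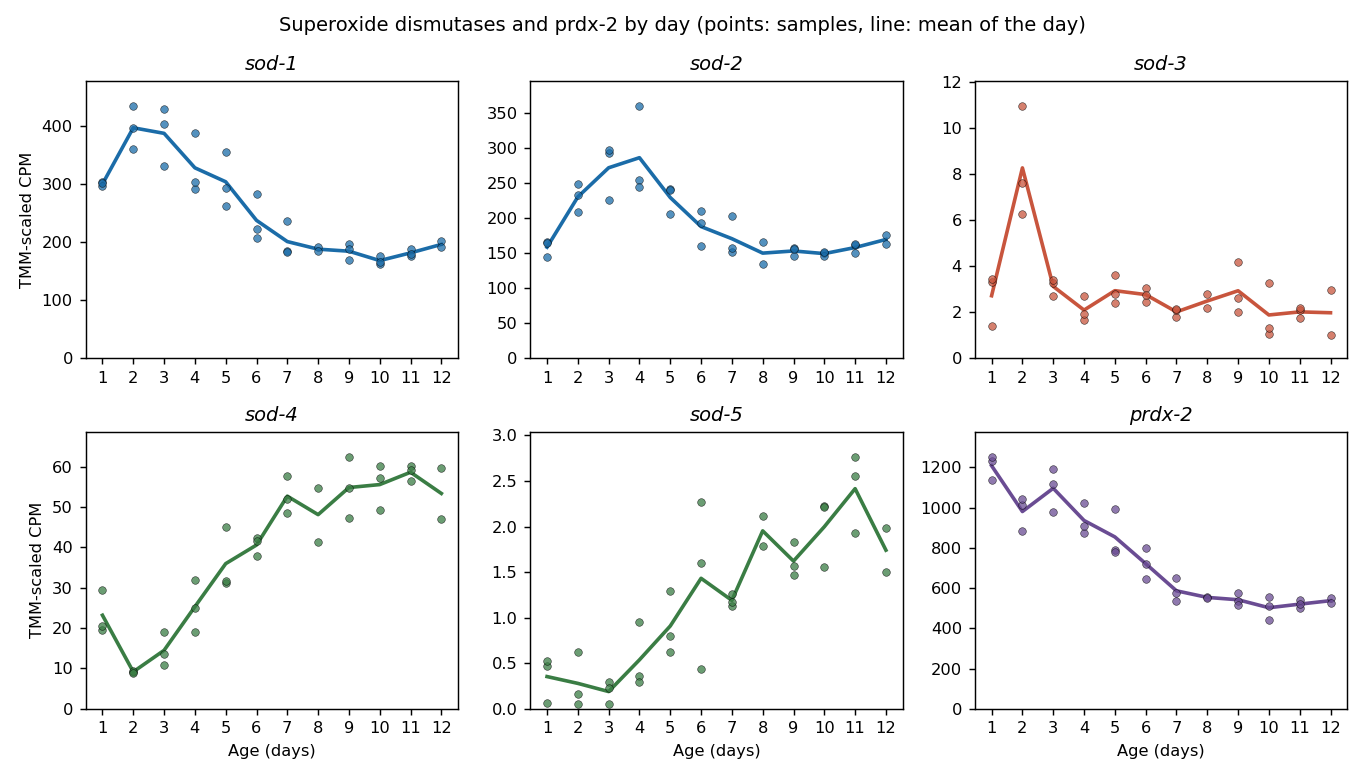
TMM-scaled CPM of the 5 superoxide dismutase genes and prdx-2 by age in days, with every sample as a point and lines through the daily means; each panel has its own axis from 0. The genes sod-1, sod-2 and prdx-2 decline to lowest means of 168, 149 and 502 CPM on day 10, sod-3 peaks on day 2 alone, and sod-4 and sod-5 climb from days 2 and 3.

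The mitochondrial gene sod-2 reached its highest daily mean later than sod-1. Its daily means were 159, 230.3, 272, 286, 229, 188, 171, 150.0, 153, 149, 158 and 169.5 CPM. The mean was highest on day 4, where day 4 replicate 2 alone had 359.8 CPM and the other samples 244 and 255 CPM. Those other samples averaged 249.5 CPM, so without that library the highest mean was that of day 3. Of the set, sod-2 was the gene that passed for the cubic coefficient (edgeR adjusted p = 0.00378, beside 11.0% of detected genes). Samples of days 11 and 12 had 150.4, 161, 162.5, 176 and 163 CPM, against 209, 241 and 297.5 CPM (lowest, median, highest) on days 2 and 3. The groups did not overlap, with a log2 fold change of -0.61 ± 0.11 (edgeR adjusted p = 1.98e-05), a smaller fall than that of sod-1. Under library size alone this change was -0.21 with an edgeR adjusted p of 0.0893, while the median of all detected genes in that comparison was 0.45. On days 6 and 7 the change was -0.48 ± 0.10 (edgeR adjusted p = 2.05e-04), at 151.5, 177 and 210.4 CPM with an overlap of the groups; it was lost under library size alone (-0.05, edgeR adjusted p = 0.676) and without replicate 1 (-0.43, edgeR adjusted p = 0.0148) or replicate 3 (-0.37, edgeR adjusted p = 0.0315).

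The insulin-responsive gene sod-3 stood out by a peak on a single day. It had 7.60, 6.26 and 10.9 CPM on day 2, against 3.29, 3.44 and 1.40 CPM on day 1. All day 2 samples were higher than all day 1 samples, by 3.03-fold (log2 fold change 1.60 ± 0.38, edgeR adjusted p = 0.000451). By day 3 the samples were back at 3.25, 3.41 and 2.69 CPM, below every sample of day 2, and from then on daily means stayed between 1.88 and 3.12 CPM. Its fall with age, a linear coefficient of -0.13 ± 0.03 log2 units per day (edgeR adjusted p = 0.000144), includes the height of day 2. On days 11 and 12 it had 1.75, 2.097, 2.19, 0.993 and 2.95 CPM, so that 4 of these 5 samples lay below every day 3 sample and 1 lay among them. Set against days 2 and 3 together (2.69, 4.84 and 10.9 CPM) the log2 fold change on days 11 and 12 was -1.34 ± 0.30 (edgeR adjusted p = 0.000253) and that on days 6 and 7 -1.11 ± 0.27 (edgeR adjusted p = 0.000958). These rest on 22 to 215 counts per sample. Calls of sod-3 were lost without replicate 1 in the age course (edgeR adjusted p = 0.0109) and in the late and middle comparisons (edgeR adjusted p = 0.0341 and 0.0212), in the middle comparison also without replicate 2 (edgeR adjusted p = 0.0157) and under library size alone (edgeR adjusted p = 0.0357).

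The extracellular dismutase gene sod-4 rose after day 2. It first dropped, to 9.09, 9.49 and 8.91 CPM on day 2, against 19.6, 20.6 and 29.5 CPM on day 1 (log2 fold change -1.34 ± 0.20, edgeR adjusted p = 1.14e-06), with no overlap. Daily means from day 2 to day 12 were then 9.16, 14.5, 25.3, 36.0, 40.6, 52.7, 48.1, 54.9, 55.6, 58.6 and 53.4 CPM. Most of the climb thus fell before day 7, and from day 7 on neighbouring days overlapped. Samples of days 11 and 12 had 56.6, 60.2, 59.2, 47.2 and 59.6 CPM, against 8.91, 10.2 and 19.02 CPM (lowest, median, highest) on days 2 and 3. The lowest late sample was more than 2 times the highest early one, and the fitted rise was 4.86-fold (log2 fold change 2.28 ± 0.15, edgeR adjusted p = 1.35e-12). On days 6 and 7, at 37.8, 45.5 and 57.6 CPM, it was already 4.01-fold (log2 fold change 2.01 ± 0.14, edgeR adjusted p = 1.00e-11). The linear coefficient of 0.24 ± 0.01 log2 units per day (edgeR adjusted p = 2.17e-16) came with a negative quadratic one (-2.23, edgeR adjusted p = 3.53e-09), as did that of sod-5, beside 18.6% of detected genes. The antisense neighbour ctr-9 averaged 223 CPM on day 11, against 122.5 CPM on day 2, and its part in the sod-4 counts was not tested.

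The minor cytosolic gene sod-5 was close to the limit of detection in young adults. It passed the detection filter through later days, since 2 of the 6 samples of days 2 and 3 had at least 5 counts. A gene kept in this way had to be higher later, so its fold changes and p-values are given as a description. Those 6 samples held 28 counts in all and the 5 samples of days 11 and 12 held 237. The late samples had 1.93, 2.77, 2.55, 1.99 and 1.497 CPM, against 0.0500, 0.192 and 0.626 CPM (lowest, median, highest) on days 2 and 3. The groups did not overlap, and the fitted rise of 8.66-fold (log2 fold change 3.12 ± 0.46, edgeR adjusted p = 1.34e-06) had a wide error. On days 6 and 7, at 0.432, 1.22 and 2.27 CPM, it was 5.52-fold (log2 fold change 2.46 ± 0.45, edgeR adjusted p = 3.90e-05) and the groups overlapped. Without replicate 2 these log2 fold changes were 4.00 and 3.18 (edgeR adjusted p = 4.40e-05 and 0.000547), the highest of the alternatives run, the lowest being 2.76 without replicate 1 and 2.24 without replicate 3. The linear coefficient was 0.32 ± 0.04 log2 units per day (edgeR adjusted p = 1.28e-08), whereas a negative quadratic coefficient (-2.18, edgeR adjusted p = 0.00943) was past the threshold by little and was lost in 7 alternatives.

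These opposite courses changed the make-up of dismutase transcripts. Per length, the sum of the 5 genes was 856 ± 71.8 CPM per kb on day 2, 601 ± 86.5 on day 6 and 500.0 ± 3.31 on day 11. Of that sum, sod-1 made up 64.5 ± 1.57% on day 2, 54.9 ± 1.71% on day 6 and 50.5 ± 1.86% on day 11. The share of sod-2 on those days was 33.6 ± 1.73%, 39.0 ± 1.97% and 39.4 ± 1.46%, so that these main cytosolic and mitochondrial genes together gave most of the sum throughout. The share of sod-4 was 0.825 ± 0.0991% on day 2, 5.24 ± 0.744% on day 6 and 8.98 ± 0.262% on day 11. Shares within a sample do not depend on the scaling between samples; they are given as a description, without a test.

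The catalases shared an abrupt drop between day 1 and day 2 and then parted. The peroxisomal gene ctl-2 had 70.0, 58.6 and 81.6 CPM on day 2, against 306, 403.5 and 316 CPM on day 1, a 4.88-fold lower level (log2 fold change -2.29 ± 0.21, edgeR adjusted p = 1.23e-10). The cytosolic gene ctl-1 had 84.1, 64.0 and 99.3 CPM on day 2, against 210.3, 313 and 240.0 CPM on day 1 (log2 fold change -1.63 ± 0.24, edgeR adjusted p = 8.75e-07). The gene ctl-3 had 81.5, 62.5 and 92.2 CPM on day 2, against 142, 212.5 and 169 CPM on day 1 (log2 fold change -1.15 ± 0.24, edgeR adjusted p = 8.87e-05). In none of them did the days overlap. The summed level of the 3 genes was 145 ± 27.7 CPM per kb on day 2, against 483 ± 88.8 CPM per kb on day 1.

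**Figure D3:**
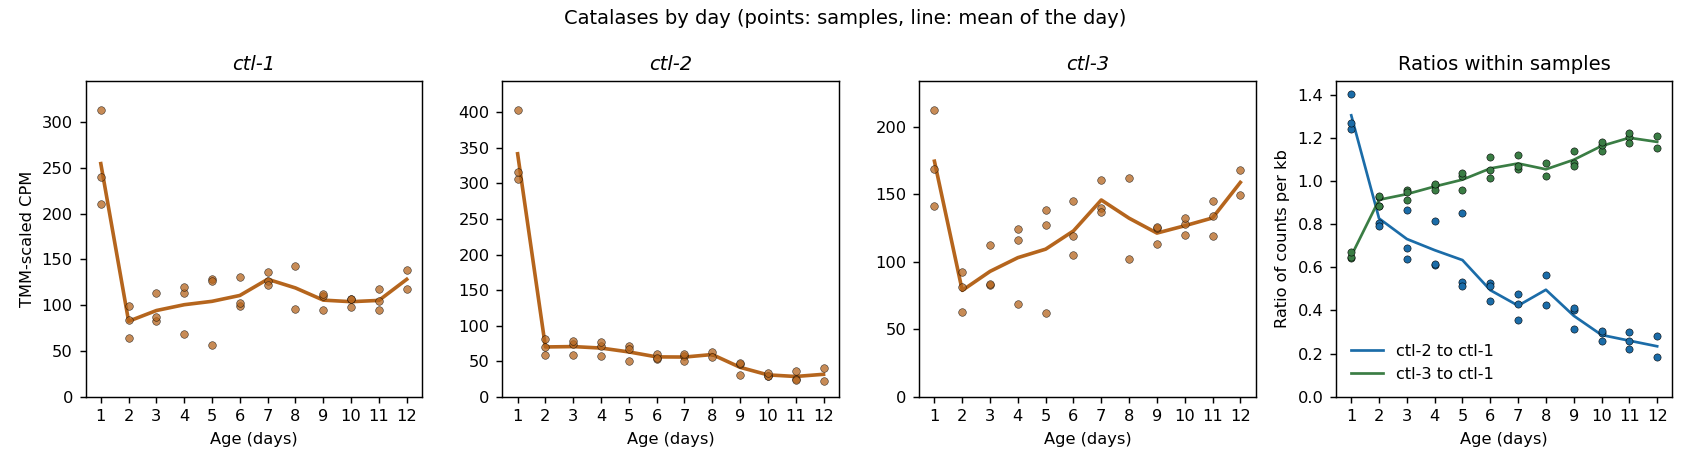
TMM-scaled CPM of ctl-1, ctl-2 and ctl-3 by age in days (left panels) and ratios of counts per kb of ctl-2 and ctl-3 to ctl-1 within each sample (right panel); points are samples, lines run through daily means and all axes start at 0. All 3 genes are highest on day 1, and the ratios move apart with age, to 0.234 for ctl-2 and 1.18 for ctl-3 on day 12.

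After day 2, ctl-2 fell again and ctl-3 climbed. The daily means of ctl-2 from day 2 to day 12 were 70.1, 70.6, 68.5, 63.1, 56.1, 55.9, 59.4, 41.4, 30.8, 28.5 and 31.6 CPM, a plateau followed by a further step down after day 8. Its samples of days 11 and 12 had 25.4, 23.7, 36.5, 22.5 and 40.8 CPM, against 58.6, 72.2 and 81.6 CPM (lowest, median, highest) on days 2 and 3. The groups did not overlap, with a log2 fold change of -1.23 ± 0.16 (edgeR adjusted p = 1.36e-07). On days 6 and 7, at 50.6, 55.5 and 60.3 CPM, the log2 fold change of -0.33 ± 0.14 did not pass (edgeR adjusted p = 0.0467), although it did when those days alone were fitted (edgeR adjusted p = 0.00793), and under library size alone it was 0.11 (edgeR adjusted p = 0.495).

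The gene ctl-3 had 119.2, 133.5, 145, 149.7 and 168 CPM on days 11 and 12, against 62.5, 83.1 and 112 CPM (lowest, median, highest) on days 2 and 3. Late samples were all above early ones, by a log2 fold change of 0.76 ± 0.18 (edgeR adjusted p = 0.000422), and on days 6 and 7, at 105, 139 and 160.2 CPM with some overlap, the change was 0.65 ± 0.17 (edgeR adjusted p = 0.00161). Without replicate 1 the log2 fold changes of 0.86 and 0.63 no longer passed (edgeR adjusted p = 0.0103 and 0.0396). With day 1 added to the age course, its linear coefficient of 0.08 ± 0.02 log2 units per day (edgeR adjusted p = 5.45e-05) became 0.03 (edgeR adjusted p = 0.119), since day 1 was its highest day at 174 ± 35.8 CPM.

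The gene ctl-1 was the member whose course over days 2 to 12 was not called. Its linear coefficient was 0.04 ± 0.02 log2 units per day (edgeR adjusted p = 0.0358), and its daily means over those days stayed between 82.5 and 128 CPM. Under library size alone this coefficient was 0.08 (edgeR adjusted p = 1.40e-06), and with day 1 included it was -0.03 (edgeR adjusted p = 0.198). Its log2 fold change was 0.40 ± 0.18 on days 11 and 12 against days 2 and 3 (edgeR adjusted p = 0.0477) and 0.44 ± 0.17 on days 6 and 7 (edgeR adjusted p = 0.0274). Both passed under library size alone, when the compared days alone were fitted, and without day 4 replicate 2 and day 5 replicate 3, an alternative chosen after seeing the data (edgeR adjusted p = 0.00670 and 0.00255). Those libraries had the lowest ctl-1 of their days, 68.4 CPM against 113 and 120.0 CPM in the other day 4 samples, and 57.1 CPM against 127 and 129 CPM in the other day 5 samples. They were likewise lowest in ctl-3, at 68.8 and 62.1 CPM.

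The ratio of ctl-3 to ctl-1 within samples removed much of this scatter, whereas that of ctl-2 to ctl-1 kept more of it. On day 5 these ratios were 1.006 ± 0.0436 and 0.633 ± 0.191 in counts per kb. For the latter, day 5 replicate 3 had 0.853, against 0.5333 and 0.5135 in the other day 5 samples. The ratio of ctl-3 to ctl-1 in counts per kb was 0.653 ± 0.0155 on day 1, 0.913 ± 0.0239 on day 2, 1.06 ± 0.0478 on day 6 and 1.18 ± 0.0384 on day 12. It was between 1.15 and 1.22 in the samples of days 11 and 12, against 0.885 to 0.958 in those of days 2 and 3. The ratio of ctl-2 to ctl-1 went the other way, with 1.30 ± 0.0856 on day 1, 0.826 ± 0.0492 on day 2, 0.494 ± 0.0457 on day 6 and 0.234 ± 0.0707 on day 12. Accordingly ctl-2 made up 44.1 ± 1.72% of catalase transcripts per length on day 1, 30.2 ± 1.08% on day 2 and 10.6 ± 1.56% on day 11, and ctl-3 made up 22.1 ± 0.903%, 33.3 ± 0.473% and 48.8 ± 1.27%. These ratios rest on the split of reads between the catalases, whose sequences were not compared here.

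The peroxiredoxin gene prdx-2 was the most abundant of the set and ran nearly parallel to sod-1 after day 2. Its daily means from day 1 to day 12 were 1208, 980.4, 1096, 936, 854, 721, 586, 554, 542, 502, 520.1 and 537 CPM. On days 11 and 12 its samples had 539.6, 501, 520.0, 551 and 524 CPM, against 884.5, 1028 and 1191 CPM (lowest, median, highest) on days 2 and 3. The late level was below the early one in every sample (log2 fold change -0.97 ± 0.09, edgeR adjusted p = 9.71e-10), and on days 6 and 7, at 536, 646 and 801 CPM, the change was -0.67 ± 0.09 (edgeR adjusted p = 2.15e-07). Its linear coefficient was -0.12 ± 0.01 log2 units per day (edgeR adjusted p = 8.84e-14). The ratio of prdx-2 to sod-1 in counts per kb was 2.35 ± 0.0750 on day 2, against 3.83 ± 0.153 on day 1, and its daily means then stayed between 2.61 and 2.91 through day 12.

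On entry into adulthood, between day 1 and day 2, sod-1, sod-2 and sod-3 were higher whereas sod-4 and the catalases were lower. Of the 9 genes, 7 passed the test, beside 75.4% of the 13785 genes detected over all days. Higher on day 2 were sod-1, sod-2 and sod-3, 3 genes beside 37.5%, and lower were sod-4 and the 3 catalases, 4 genes beside 37.9%. The samples of the days did not overlap for 8 genes, beside 82.6% of all genes tested, with 3 genes higher (beside 41.5%) and 5 lower (beside 41.1%). The increases were modest for sod-1, with 398, 360.2 and 435 CPM on day 2 against 303, 297 and 302 CPM on day 1 (log2 fold change 0.40 ± 0.14, edgeR adjusted p = 0.00881), and for sod-2, with 249, 209 and 233 CPM on day 2 against 167, 145 and 164 CPM on day 1 (log2 fold change 0.54 ± 0.14, edgeR adjusted p = 0.00130). The gene prdx-2 had 1015, 884.5 and 1042 CPM on day 2, against 1232, 1138 and 1252 CPM on day 1, without overlap, yet its log2 fold change of -0.30 ± 0.12 did not pass (edgeR adjusted p = 0.0243). For sod-5, with 17 counts on day 2 against 19 on day 1, no difference was detectable at this depth (log2 fold change -0.33 ± 0.72, edgeR adjusted p = 0.670), and the sign turned without replicate 1 (0.28, edgeR adjusted p = 0.785).

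The calls of day 2 against day 1 differed in how much they leaned on single libraries. Without replicate 3, the higher levels of sod-1 (0.34, edgeR adjusted p = 0.114), sod-2 (0.56, edgeR adjusted p = 0.0139) and sod-3 (1.05, edgeR adjusted p = 0.0216) no longer passed, and sod-1 was also lost without replicate 1 (edgeR adjusted p = 0.0195), under library size alone (edgeR adjusted p = 0.0153) and with the trend on transcript length removed (0.13, edgeR adjusted p = 0.238). With that trend removed, prdx-2 passed as lower (-0.55, edgeR adjusted p = 6.48e-05). The drops of sod-4 and of the catalases passed in every alternative run. Day 2 samples also differed from day 1 samples in tissue markers. All 9 oocyte genes were higher, beside 37.5% of all genes tested. Of the muscle genes 3 of 6 were lower, and of the hypodermal genes 3 of the 4 tested, beside 37.9%. Of 10 intestinal genes 2 were higher and 5 lower, beside the same 37.5% and 37.9%. The summed CPM of 6 muscle genes was 881 to 2636 on day 2, against 2670 to 6026 on day 1. The part of these shifts in the changes of the 9 genes was not tested.

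**Figure D4:**
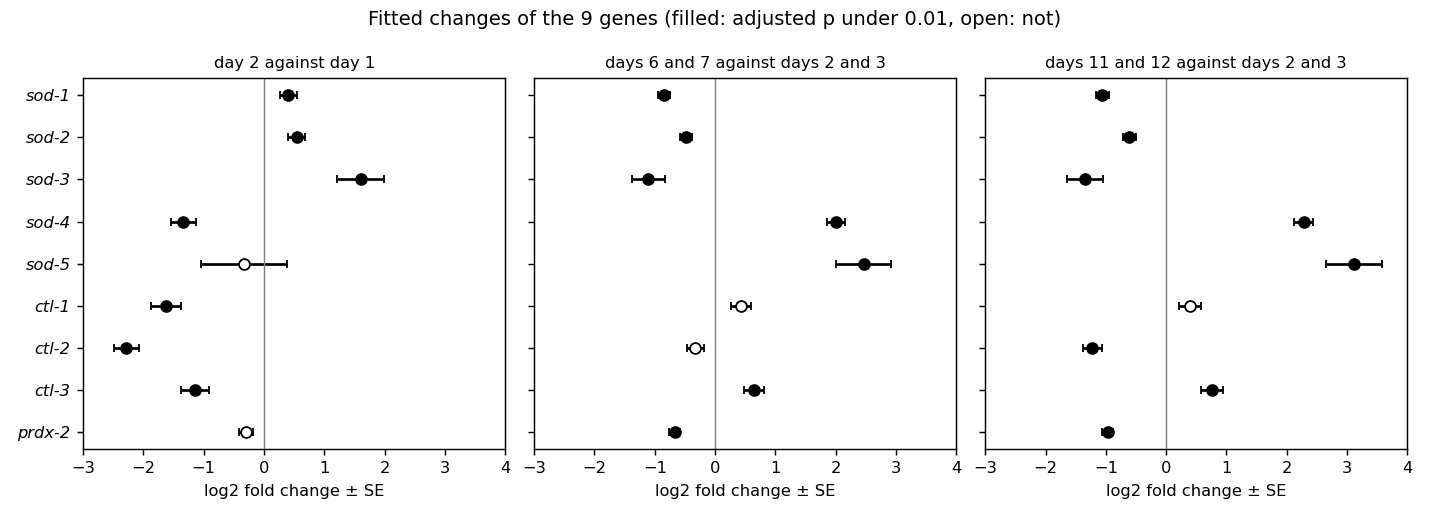
Log2 fold changes of the 9 genes (horizontal axis, bars are SE of the edgeR fit, later days over earlier days) in the 3 comparisons of days; filled points passed an adjusted p of 0.01. The dismutases sod-1, sod-2 and sod-3 lie right of 0 on day 2 against day 1 and left of 0 in both comparisons with days 2 and 3, whereas sod-4 goes the opposite way, at -1.34 and then at 2.01 and 2.28. Day 2 samples enter all 3 comparisons, so these opposite signs are not independent.

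The middle-age and late comparisons both use the samples of days 2 and 3 and are therefore not independent. Day 2 samples also enter day 2 against day 1, on the other side, so a high or low day 2 pushes the signs apart. On days 6 and 7, 7 of the 9 genes passed, beside 50.2% of the genes tested, 3 higher (beside 26.5%) and 4 lower (beside 23.6%). In that comparison the samples of 3 genes did not overlap, beside 34.8%, with 1 gene higher (beside 18.1%) and 2 lower (beside 16.7%). On days 11 and 12, 8 passed, beside 59.9%, 3 higher (beside 31.3%) and 5 lower (beside 28.7%), and the samples of 7 genes did not overlap, beside 53.1%, with 3 genes higher (beside 27.8%) and 4 lower (beside 25.3%). The median log2 fold change over the 9 genes was -0.33 on days 6 and 7 and -0.61 on days 11 and 12, with medians of all tested genes of 0.05 and 0.06. Under library size alone the medians of all tested genes were 0.48 and 0.45, and the numbers of genes higher and lower were 6605 and 1189 on days 6 and 7 (3657 and 3257 with TMM) and 6483 and 2327 on days 11 and 12 (4308 and 3956 with TMM). On days 11 and 12, 9 of the 10 intestinal marker genes and 6 of the 9 oocyte genes were lower than on days 2 and 3, and the summed CPM of 12 transcripts of the mitochondrial genome was 2133 to 3334, against 15000 to 21500 on days 2 and 3. Their part in the changes of the 9 genes was not tested.

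Other genes of peroxide metabolism did not share a direction. Among other peroxiredoxins and the thioredoxin system, which feeds electrons to peroxiredoxins, 4 of 10 detected genes rose over days 2 to 12 and 6 fell, beside 36.9% and 33.9% of all detected genes (median linear coefficient -0.05 log2 units per day, that of all detected genes being 0.01). Those named here, by a rule of size, were the thioredoxin gene trx-3 (0.26 log2 units per day) and the mitochondrial thioredoxin reductase gene trxr-2 (0.13), which rose, and the thioredoxin-like gene txl-1 (-0.15) and the mitochondrial peroxiredoxin gene prdx-3 (-0.14), which fell (largest edgeR adjusted p of these 1.15e-08). In the glutathione system 3 of 15 genes rose and 9 fell, beside the same 36.9% and 33.9% (median -0.07). The gene for the enzyme of the rate-limiting step of glutathione synthesis, gcs-1, rose (0.07, edgeR adjusted p = 1.25e-06), whereas the glutathione peroxidase gene gpx-5 (-0.39, edgeR adjusted p = 3.04e-14) and the glutaredoxin gene glrx-10 (-0.14, edgeR adjusted p = 1.65e-11) fell. A further list held haem peroxidases, the dual oxidase that makes hydrogen peroxide at the cuticle, and also doxa-1 and tsp-15. Of its 9 detected genes 2 rose and 5 fell, with a median of -0.07 and against the same background of 36.9% and 33.9%. The peroxidasin gene pxn-2 (0.19, edgeR adjusted p = 4.68e-07) was among those that rose. Among those that fell were skpo-3 (-0.24, edgeR adjusted p = 4.86e-09), skpo-1 (-0.19, edgeR adjusted p = 4.80e-13), doxa-1 and tsp-15. The dual oxidase gene bli-3 did not pass for the linear coefficient (-0.01, edgeR adjusted p = 0.436). Under library size alone 2 genes of the list rose and 3 fell, beside 7047 and 3035 of all detected genes.

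Transcripts of genes listed as regulators of these enzymes mostly rose. The list was not split by whether a gene promotes or restrains the enzymes, so the counts give no direction for their control. Of 16 genes, among them the transcription factors DAF-16, SKN-1 and HSF-1 and the kinases that act on them, 13 rose and 1 fell, beside 36.9% and 33.9% of all detected genes, with a median linear coefficient of 0.05 log2 units per day. Examples were nsy-1 (0.16, edgeR adjusted p = 1.06e-07), the kinase at the head of the p38 cascade, and smk-1 (0.14, edgeR adjusted p = 5.07e-08), a partner of DAF-16, which rose, and the kinase gene sgk-1 (-0.10, edgeR adjusted p = 1.63e-06), which fell. Of 8 detected genes known as targets of DAF-16, 5 rose and 3 fell, beside 36.9% and 33.9% (median 0.19), with the metallothionein gene mtl-1 (0.33) and the linker histone gene hil-1 (0.26) upwards and dod-3 (-0.24) and the glyoxylate cycle gene icl-1 (-0.22) downwards (largest edgeR adjusted p of these 1.07e-06). Of 9 targets of SKN-1, 3 rose and 5 fell, beside 36.9% and 33.9% (median -0.14), the glutathione S-transferase genes gst-10 (-0.48) and gst-4 (-0.34) most (edgeR adjusted p = 7.06e-14 and 6.59e-14).

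Genes for the assembly of peroxisomes, the organelle of CTL-2, mostly fell, with 7 of 11 lower and 1 higher over days 2 to 12, beside 33.9% falling and 36.9% rising among all detected genes (median linear coefficient -0.07 log2 units per day). The peroxin genes prx-2 (-0.25, edgeR adjusted p = 4.94e-12) and prx-11 (-0.14, edgeR adjusted p = 3.79e-08) fell and prx-10 rose (0.06, edgeR adjusted p = 3.17e-06). These counts changed with scaling, as did those of all genes. Under library size alone 3 of the 11 rose and 3 fell, beside 7047 rising and 3035 falling among the 13865 detected genes. In the regulators the counts under library size alone were again 13 and 1, beside the same 7047 and 3035. From day 1 to day 2, 8 of the 11 peroxisome genes were lower and 1 was higher, in the interval in which ctl-2 dropped, beside 37.9% lower and 37.5% higher among all genes tested.

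**Figure D5:**
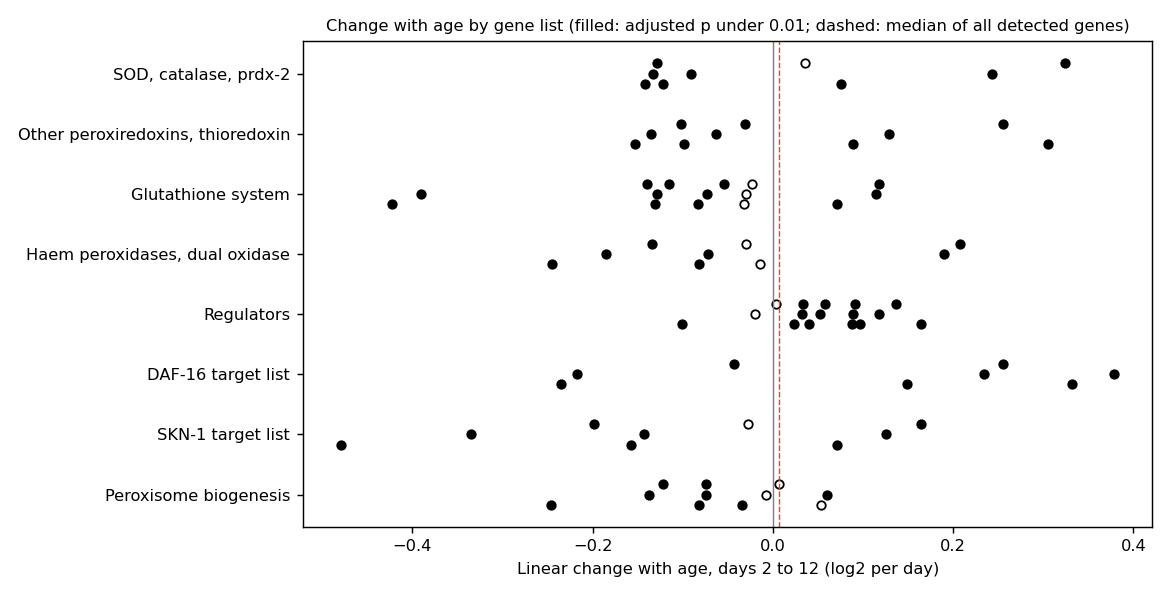
Linear change with age over days 2 to 12 (log2 units per day, horizontal axis) of each detected gene of 8 lists, with the 9 genes described here at the top; filled points passed an edgeR adjusted p of 0.01, open points did not, and the dashed line is the median of all detected genes, 0.01. Regulators lie mostly right of 0 (13 rose, 1 fell), and peroxisome biogenesis genes mostly left of it (1 rose, 7 fell).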

How the data were processed

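The authors deposited a table of raw counts, whole numbers of reads per gene, for 34 samples of days 1 to 12. The submitters' notes name STAR 2.7.3a, featureCounts and WBcel235; poly(A) RNA was copied with random hexamers. Here an entry for a transgene (at most 0.001241% of counts) was left out, and a gene was tested where no fewer than 75% of the fitted samples reached 5 counts: 13865 on days 2 to 12 and 13785 over all days. Symbols were paired with 19708 identifiers, and exon lengths from Ensembl release 115 with 20052.

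Counts were scaled by TMM and tested with edgeR 4.0.16 in R 4.3.3 (glmQLFit, glmQLFTest), in a third-degree orthogonal polynomial of age over 31 samples and in a fit of day over 34 samples. Adjusted p-values are Benjamini-Hochberg values over all detected genes, with a threshold of 0.01. The study's term for sequencing batch was left out, since the batches of these samples are not given in the sources used here. The script was tested on simulated data. From each gene list, up to 2 genes with the largest positive and 2 with the largest negative linear coefficient were named, among genes called with a mean of at least 100 counts; all 9 members were described. For each member, the 3 genes with the highest Pearson r of log2(CPM + 0.5) over 34 samples were named as well. The members and lists were chosen with earlier results of these data known.

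The labelled day gave each sample its group. Collection was repeated on separate cultures, but the labels do not say that a replicate number marks 1 such repeat, and the count column of a day 12 sample has another number than its label, so that sample was used without a number. P-values measure the spread between these samples. The alternatives were size factors of DESeq2 1.42.0, its Wald test, library size alone, no filter, removal of the trend on transcript length, day 1 included, a joint test of the coefficients, the compared days alone, the replicate block, and the omission of each replicate number and of 2 libraries.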

Additional observations from a re-analysis of the deposited data

Results flagged for a closer look

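The level of sod-4 on days 11 and 12 was flagged because a sample lay far from the others of its group. Day 12 replicate 1 had 47.2 CPM, whereas the other 4 samples lay between 56.6 and 60.2 CPM, so that its gap to the nearest was 0.722 of the range of the group, over Dixon's critical value of 0.71 for 5 samples. It was still above every sample of days 2 and 3 (8.91 to 19.02 CPM). Of 27 groups of 4 to 10 samples examined for the 9 genes it was the 1 flagged, and chance flags about 1 in 20.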

How the results depend on the processing

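Over 492 values of the 9 genes under alternatives, 432 kept their direction and their side of the threshold, 22 passed in addition, 29 no longer passed and 9 changed sign. Among the linear coefficients these numbers were 95, 1, 2 and 1. None of the 9 had passed at first, and 1 passed after the change. With day 1 included, the linear coefficient of ctl-1 became -0.029, and the quadratic ones became 1.05 for ctl-1, 1.42 for ctl-2 (edgeR adjusted p = 0.00271), 0.56 for ctl-3 and -0.43 for sod-2. Under library size alone, the quadratic coefficients of sod-2 and prdx-2 became -0.21 and -0.14, and ctl-2 on days 6 and 7 had a log2 fold change of 0.11. Without 1 replicate number, sod-5 on day 2 against day 1 had log2 fold changes of -1.32 to 0.28, the highest without replicate 1. Under library size alone 3035 genes fell with age, 6483 were higher and 2327 lower on days 11 and 12, and 6605 were higher and 1189 lower on days 6 and 7. Without 1 replicate number, or without day 4 replicate 2 and day 5 replicate 3, the members called on day 2 against day 1 were 4 to 7, the genes lower on days 11 and 12 were 2622 to 4253, and on days 6 and 7 there were 4250 to 7651 genes called, 1705 to 3627 lower and 4 to 8 members called. The fits without a replicate number hold fewer samples and keep the day 12 sample that has no number, which the block drops. Samples with the same replicate number did not deviate together (r over 0.1 in 40 of 166 pairs, mean r 0.020, and 12 of 33 samples closest to their own number), so the numbers were not taken to pair samples. With the replicate block, 11155, 10377, 6910 and 7202 genes were called in the age course, on day 2, on days 6 and 7 and on days 11 and 12 (11139, 10392, 6914 and 8264 without it), and 8, 7, 7 and 8 members. DESeq2's Wald test called 11396, 10602, 7394 and 8666 genes and as many members. Depth limits sod-5 (1 to 58 counts per sample) and sod-3 (22 to 215) most.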

Other observations

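The genes whose courses over the 34 samples were most like those of the 9 are given as a description, by Pearson's r of log2 CPM among 9501 candidates, without a test; samples of 1 day share their age, so r mostly measures a shared course over days. For sod-1 they were nuo-3 (r = 0.987), a subunit gene of respiratory complex I, ndab-1 (0.980) and the proteasome gene pbs-5 (0.980), and for prdx-2 they were R53.4 (0.987), F23H11.5 (0.985) and T02H6.11 (0.984). For sod-2 they were trpp-3 (0.975), nepr-1 (0.974) and spcs-2 (0.973). The rising sod-4 was most like Y37H2A.14 (0.982), the F-box gene fbxa-24 (0.979) and C18A11.1 (0.967), and sod-5 most like T23G5.3 (0.907), B0041.11 (0.892) and E04D5.5 (0.890). The catalases each had other partners: vab-19 (0.941), eef-1A.2 (0.928) and egl-3 (0.921) for ctl-1, Y46D2A.2 (0.975), hpo-6 (0.970) and the acyl-CoA synthetase gene acs-22 (0.969) for ctl-2, and Y43F8C.3 (0.921), tep-1 (0.896) and crtc-1 (0.879) for ctl-3. For sod-3, with 22 to 215 counts per sample, the highest r was 0.755 with W06A7.4, followed by 0.739 with ugt-63 and 0.715 with alh-9. Candidates had a mean of at least 100 counts, and genes that share its day 2 peak were not searched for.

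The genes also differed in how much samples of the same day varied. The median coefficient of variation over days was 8.39% for prdx-2, 8.53% for sod-1 and 8.88% for sod-2, and 15.2% to 17.3% for sod-4 and the catalases. It was 23.7% for sod-3 and 29.0% for sod-5, the genes with the fewest counts. The widest spread of ctl-1 and ctl-3, 39.2% and 37.7%, was on day 5, and that of ctl-2, 40.8%, on day 12.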
